A study of Mus musculus with 40 samples.

Results

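The response of Ikaros-deficient mouse B cells to CpG DNA was described across all genes by setting 4 libraries of cells given CpG for 1 day against 2 libraries of naive cells. Both groups were MD4 BCR-tg Cd23-cre Ikzf1(fl/-) follicular B cells on the C57BL/6 background, sorted by flow cytometry, and they make up 6 of the 28 RNA-seq libraries among the 40 samples of the series. These 6 were taken because they are all the CpG and all the naive libraries of that genotype. Of 24732 genes in the deposited tables, 11081 reached 1 TPM (transcripts per 1000000, scaled by gene length) in at least 2 of the 12 libraries fitted together, and these were tested.

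MD4 BCR-tg mice carry a rearranged B cell receptor for hen egg lysozyme, so nearly all B cells of all the groups share one antigen specificity. The Cd23-cre transgene is active late in B cell maturation, so the floxed Ikzf1 allele is lost in cells that developed with it. The fl/- cells have 1 floxed and 1 null allele, whereas the fl/+ cells used for comparison also carry Cd23-cre but keep 1 wild-type allele. That comparison had 4 libraries of Cd23-cre Ikzf1(fl/+) cells with CpG for 1 day and 2 libraries of naive Cd23-cre Ikzf1(fl/+) cells. The labels used here give neither ages nor the number of animals behind a library, and a culture without CpG was not analysed. If libraries of a group came from the same animal or culture, the p-values measure a spread that may be technical.

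Unmethylated CpG DNA is sensed in endosomes by Toll-like receptor 9 (TLR9), which signals through the adaptor Myd88 to NF-kB and MAP kinases and drives B cells into growth, division and cytokine secretion. Ikaros, encoded by Ikzf1, is a zinc-finger DNA-binding protein of lymphoid cells that recruits chromatin-modifying complexes and is known to restrain the activation of mature B cells. Naive follicular B cells are small and quiescent, recirculate through lymphoid organs, and display high levels of MHC class II proteins.

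The targeted gene was read first. Ikzf1 measured 65.3 and 57.3 TPM in the naive fl/- libraries and 39.5, 39.4, 35.7 and 31.7 TPM in the CpG fl/- libraries, against 136 and 120.2 TPM and 172, 135, 149 and 140.0 TPM in the fl/+ libraries. All 6 fl/- values lay below all 6 fl/+ values. The TPM covers the whole gene model, so it does not separate deleted from remaining exons and is no measure of residual protein. The fl/- difference between CpG and naive was -0.73 ± 0.13 on the log2(TPM + 1) scale (adjusted p = 0.000207), and in fl/+ cells it was 0.21.

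The reads recovered from the TPM values came to between 14422341 and 17273512 per fl/- library. By the Y-linked transcripts Kdm5d, Eif2s3y, Uty and Ddx3y, the 4 CpG libraries were male and the naive pair held 1 male and 1 female. The naive libraries bear numbers of library series 36 and the CpG libraries of series 49, so CpG, the day in culture and the library series cannot be told apart. Another library series, 57, held 3 naive libraries, 2 of MD4 BCR-tg Ikzf1(fl/+) cells without Cd23-cre and 1 of MD4 BCR-tg Cd23-cre Ikzf1(fl/+) cells. Between naive Cd23-cre Ikzf1(fl/+) cells of series 36 and these, a comparison in which series and Cre partly go together, 14 genes (0.126%) were at least 4-fold higher and 37 genes (0.334%) at least 4-fold lower without overlap. Among genes named below, the models of Cd74, H2-Oa, Txnip, Ccna2, Foxm1, Mybl2, Ltb, Cebpd, Shmt2, Rassf4 and Evi2a are marked in the files as overlapping, so their reads could be shared with another gene. Cell identity was checked on lists of marker genes. The 10 tested B cell markers summed to 15200 to 16300 TPM in naive and 2070 to 2850 TPM in CpG fl/- libraries. By the rule given below, 8 of the 10 fell at least 4-fold (80%, against 3.19% of all genes). The 2 that were not called were the transcription factors Pax5, with 174 and 124 TPM in the naive and 144, 134, 116 and 116 TPM in the CpG libraries, and Ebf1, with 86.3 and 68.1 TPM in the naive and 62.6, 51.1, 62.1 and 57.1 TPM in the CpG libraries, which were present in both states. T cell markers summed to 40.5 to 42.9 TPM in naive and 12 to 19.2 TPM in CpG libraries, with Cd3e at 0.673 and 0.906 TPM in naive libraries and at 0 in all 4 CpG libraries. NK cell markers summed to 59.8 to 94.2 and 2.23 to 5.13 TPM, monocyte and macrophage markers to 68.8 to 87.9 and 34.7 to 70.1 TPM, and neutrophil markers to 26.8 to 91.2 and 0.786 to 24.0 TPM. The part of these other cell types in the results was not tested. In bulk libraries fewer cells of a type and less RNA per cell cannot be told apart.

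After 1 day of CpG, fl/- B cells held far more transcript of cell division, ribosome production and biosynthesis genes, and far less of MHC class II, homing and quiescence genes. Because library series differ, a gene was called raised or lowered where the mean log2(TPM + 1) differed by 2 or more, which is 4-fold on that scale, where no CpG library overlapped a naive library, and where limma gave an adjusted p under 0.05. By this rule 1110 of 11081 genes rose (10%) and 354 fell (3.19%). A total of 137 genes rose and 47 fell by 16-fold or more. On adjusted p alone 6067 genes were higher and 2159 lower with CpG. TPM are shares of a library, and the median difference over all genes was 0.53. H2-Aa, H2-Ab1, H2-Eb1 and Cd74 together took 9.25 to 9.64% of all TPM in naive fl/- libraries and 0.369 to 0.617% in CpG fl/- libraries. With median-ratio scaling, which brought that median to 0.02, 630 genes rose and 635 fell. All 630 were among the 1110, and all 354 lowered genes remained called. Against the naive series 57 libraries in place of the fl/- naive pair, which changes the series and the Ikzf1 genotype of the controls together, 773 of the 1110 (69.6%) and 312 of the 354 (88.1%) were called again. The threshold lay in a continuum: Kctd17, at 2.0003, was just inside it, and Urb1, at 1.9993, just outside. On the lowered side Acox3, at -2.0011, was inside and Pdlim2, at -1.9980, outside.

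**Figure D1:**
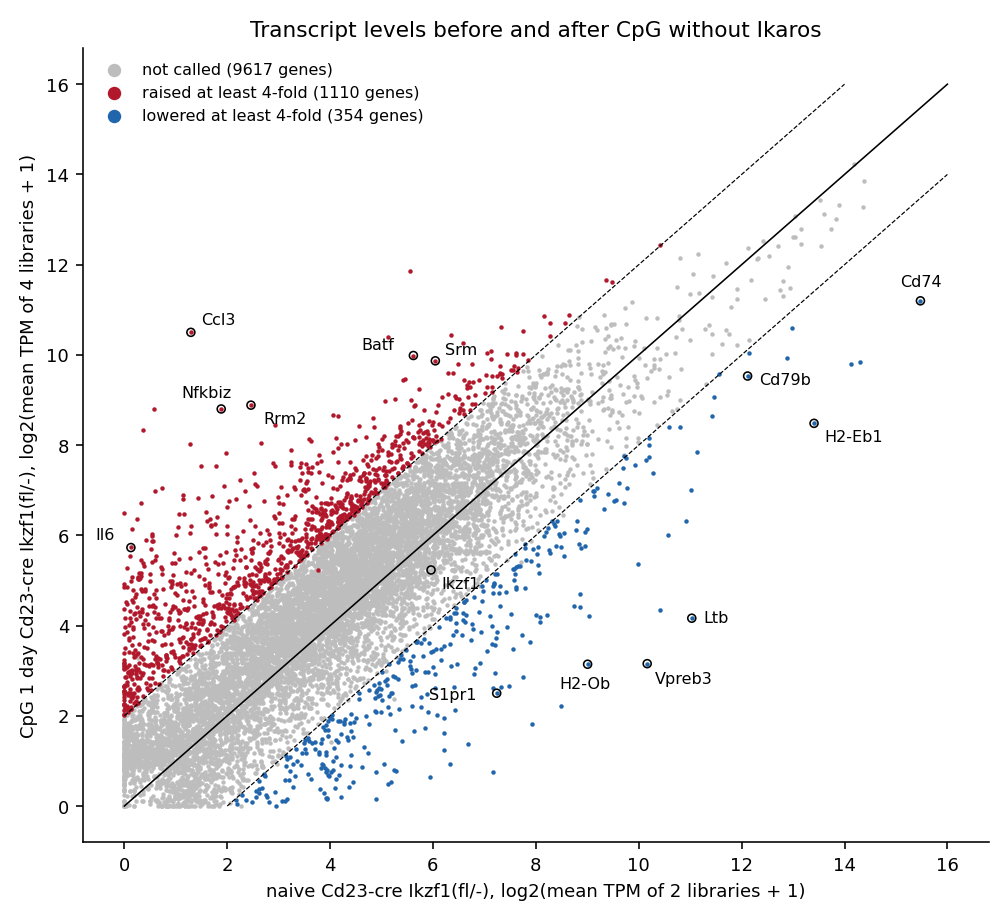
Each point is 1 of the 11081 tested genes, placed by log2(mean TPM + 1) of the 2 naive (x axis) and of the 4 CpG (y axis) Cd23-cre Ikzf1(fl/-) libraries, with the solid line at no difference and dashed lines at 4-fold. The 1110 raised genes (red) reach up to Ccl3, Nfkbiz and Rrm2, the 354 lowered genes (blue) include the abundant Cd74 and H2-Eb1, and Ikzf1 lies within the dashed lines.

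Genes of the TLR9 pathway were not among the raised genes. Of 32 tested genes of TLR sensing and signalling 0 rose and 2 fell (6.25%, against 3.19% of all genes). The median difference was -0.06 against 0.53 over all genes. Tlr9 measured 247 and 141 TPM in the naive and 76.6, 87.2, 70.4 and 66.7 TPM in the CpG libraries, a difference of -1.31 ± 0.20 (adjusted p = 8.52e-05) that was under 4-fold. Myd88, the adaptor below TLR9, measured 74.6 and 58.8 TPM in the naive and 72.7, 81.6, 93.2 and 92.6 TPM in the CpG libraries, and the ranges overlapped. The 2 genes that fell were Sigirr, an inhibitory member of the IL-1 receptor family, from 21.8 and 23.6 to 4.04, 5.83, 3.48 and 3.26 TPM, and Slc15a4, an endolysosomal transporter needed for TLR9 signalling. Slc15a4 went from 89 and 108 to 25.9, 24.1, 20.7 and 20.3 TPM, and its call was lost under 4 alternatives: without naive replicate 2, with a sex term, with a block for runs of library numbers and with a pseudocount of 5 TPM.

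Among 11 NF-kB subunits and inhibitors 1 rose and 1 fell (9.09% each), against 10% and 3.19% of all genes. Nfkbiz, which encodes the nuclear protein IkB-zeta that opens secondary NF-kB targets, stood at 1.27 and 4.1 TPM in naive and 459, 407, 489 and 426 TPM in CpG libraries, a difference of 7.03 ± 0.24 (adjusted p = 7.76e-10). Every CpG value lay far above both naive values. Nfkbie, an inhibitor that holds NF-kB in the cytoplasm, fell from 130.0 and 116 to 25.6, 35.3, 24.9 and 28.3 TPM, a call lost without naive replicate 1 and with a pseudocount of 5 TPM. The subunits Rel, with 24.6 and 18.6 TPM in the naive and 33.1, 22.5, 32.8 and 27.1 TPM in the CpG libraries, and Rela, with 159 and 133 TPM in the naive and 116, 124, 116 and 107 TPM in the CpG libraries, did not pass the rule.

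Of 26 NF-kB target genes 8 rose (30.8%, against 10% of all genes) and 1 fell (3.85%, against 3.19%), with a median of 0.64. Ccl3, a chemokine for monocytes and T cells, had the highest difference in a ranking of genes of at least 10 TPM in the higher group. The ranking left out antigen receptor segments, gene models without a proper symbol, Xist and Y-linked genes. Ccl3 measured 0.367 and 2.53 TPM in the naive libraries and 1785, 1202, 1697 and 1105 TPM in the CpG libraries, a difference of 9.33 ± 0.36 (adjusted p = 1.37e-09), and no value overlapped. Bcl2l1, the survival factor Bcl-xL, rose from 3.87 and 5.15 to 55, 45.6, 57.2 and 45.9 TPM. Gadd45b, a stress-response regulator of MAP kinases, rose from 36.6 and 61.7 to 467, 398, 531 and 504 TPM. The target that fell was Ltb, lymphotoxin beta, which naive B cells use to organise lymphoid tissue. It went from 1984 and 2198 to 15.5, 25.3, 12.6 and 14.3 TPM, a difference of -6.91 ± 0.31, and its gene model overlaps another, so reads could be shared.

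Secreted factors moved in both directions. Of 17 cytokine and chemokine genes 6 rose (35.3%, against 10% of all genes) and 2 fell (11.8%, against 3.19%). Il6, the inflammatory cytokine, was at 0 and 0.184 TPM in the naive and 52.1, 40.5, 56.5 and 59.2 TPM in the CpG libraries, and Il10, the anti-inflammatory cytokine, at 0 and 0.23 TPM in the naive and 30, 21.5, 42.9 and 37.2 TPM in the CpG libraries. For both, transcripts were almost absent from the naive libraries and present in every CpG library. Tnf rose from 1.75 and 3.75 to 25.6, 27.4, 25.7 and 20 TPM, but was not called against the series 57 naive libraries or with a pseudocount of 5 TPM. Outside these lists, Cebpd, a leucine-zipper transcription factor whose model overlaps another gene, rose from 0.128 and 0.443 to 339, 358, 301 and 283 TPM. Alpl, the tissue-nonspecific alkaline phosphatase, rose from 0.162 and 0.336 to 96.1, 102, 103 and 115 TPM. Both were near 0 in naive cells and plainly present in every CpG library.

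Surface molecules of activation split, with 3 of 19 raised and 3 lowered (15.8% each) and a median of -0.09. Over all genes 10% rose and 3.19% fell. Tfrc, the transferrin receptor that brings iron into dividing cells, rose from 1.02 and 1.79 to 78.4, 54.5, 66.1 and 61.1 TPM, a difference of 4.78 ± 0.25. Cd44, an adhesion receptor of activated lymphocytes, rose from 10.7 and 10.3 to 147, 101, 179 and 145 TPM. Icosl, the ligand through which B cells engage T cell ICOS, fell from 205 and 234 to 27.1, 31.2, 24.3 and 26.8 TPM. Slamf1, a homotypic receptor, fell from 11.9 and 12.4 to 1.8, 1.52, 1.31 and 0.911 TPM. The third was Tnfrsf13c, the receptor for the survival factor BAFF, which fell from 298 and 378 to 84.4, 82.2, 70 and 76.8 TPM and lost its call without naive replicate 2. The costimulator Cd86 measured 7.43 and 8 TPM in the naive and 1.26, 1.05, 1.34 and 1.21 TPM in the CpG libraries, a difference of -1.98 ± 0.25 on the log2(TPM + 1) scale, which shrinks changes of low genes, and so not called. Cd69 measured 25.7 and 22.4 TPM in the naive and 92.2, 58.6, 85.5 and 80.1 TPM in the CpG libraries.

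**Figure D2:**
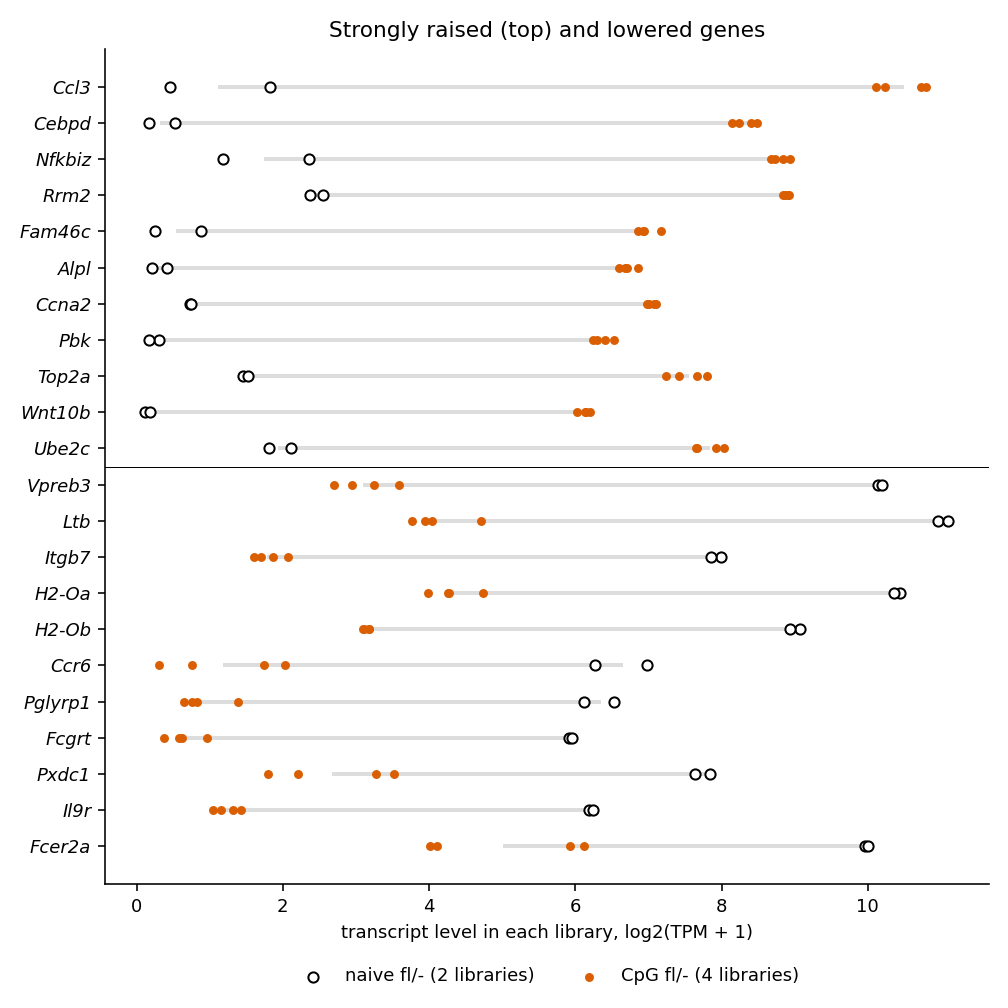
Library values of 11 strongly raised and 11 strongly lowered called genes with a mean of at least 10 TPM in the higher group, as log2(TPM + 1), with naive fl/- libraries as open and CpG fl/- libraries as filled points and a grey bar joining the group means. The 4 CpG points of each gene lie on one side of the 2 naive points, with Ccl3 first among the raised and Vpreb3 first among the lowered genes.

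The MHC class II presentation pathway fell as a whole. All 12 tested genes were lowered at least 4-fold, with a median of -4.43, against a background of 3.19% of genes lowered. The class II chains present peptide to helper T cells. H2-Aa measured 21096 and 19120.2 TPM in naive and 934, 1261, 732 and 739 TPM in CpG libraries, H2-Ab1 17713 and 18096 and 920.3, 1255, 696 and 681 TPM, and H2-Eb1 11181 and 10545 and 319.8, 462, 301 and 345 TPM. For each chain the naive values were many times the highest CpG value. Cd74, the invariant chain that escorts class II proteins, fell from 46368 and 44760.4 to 2219.8, 3196, 1961 and 2018 TPM, and Ctss, the protease that trims it, from 1324 and 1147 to 133, 136, 194 and 195 TPM. The peptide exchange factor subunit H2-DMa fell from 1594 and 1429 to 58.9, 84.8, 55 and 54.6 TPM. Its modulators fell furthest: H2-Oa measured 1395 and 1318 TPM in the naive and 14.9, 25.6, 18.2 and 18.3 TPM in the CpG libraries, a difference of -6.09 ± 0.23, and H2-Ob 536 and 490.2 TPM in the naive and 7.67, 8.02, 7.58 and 8.07 TPM in the CpG libraries, a difference of -5.86 ± 0.15. Ciita, the transactivator on which class II transcription depends, fell from 326 and 215 to 16, 22.3, 12.8 and 12.2 TPM. The fall was also present with Ikaros, where all 12 genes were lowered with a median of -3.82, against 2.95% of all genes in fl/+ cells. The difference of the responses was lower in fl/- for 2 of the 12 genes, against 0.37% of all genes. These were H2-Oa (limma, adjusted p = 0.0489) and H2-Ob (adjusted p = 0.0329). These 2 calls were lost under 13 and 10 alternatives, for both genes including the fit without naive fl/+ replicate 1.

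Class II genes are read through promoter elements called the X and Y boxes. The 150 bases before the annotated start of 4 of them are shown from the RefSeq table, 5′ to 3′ on the gene's strand. The build is GRCm38.p6, which differs from the mm9 build of the expression files. These 4 were picked because letters of both elements can be read close together in them, so their spacing is partly set by that choice. Capitals mark the letters AACNGATG, at the end of the X box, and CCAAT or its reverse complement, the core of the Y box.
H2-Eb1 (chr17:34305717-34305866, plus strand): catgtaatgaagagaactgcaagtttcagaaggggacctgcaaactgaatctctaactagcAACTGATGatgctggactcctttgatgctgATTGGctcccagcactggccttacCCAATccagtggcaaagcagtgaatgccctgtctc
H2-Eb2 (chr17:34325525-34325674, plus strand): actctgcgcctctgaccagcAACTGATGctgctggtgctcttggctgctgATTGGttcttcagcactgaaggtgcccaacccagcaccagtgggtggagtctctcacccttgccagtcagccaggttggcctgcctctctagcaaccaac
H2-DMb1 (chr17:34153041-34153190, plus strand): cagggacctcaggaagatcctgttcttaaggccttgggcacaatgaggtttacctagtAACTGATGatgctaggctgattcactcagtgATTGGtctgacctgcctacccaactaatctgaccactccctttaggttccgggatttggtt
H2-DMb2 (chr17:34145099-34145248, plus strand): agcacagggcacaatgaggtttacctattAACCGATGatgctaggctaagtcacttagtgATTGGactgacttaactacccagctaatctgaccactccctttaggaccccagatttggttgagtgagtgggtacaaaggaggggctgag
The first bases of the 2 elements lay 30 bases apart in H2-Eb1 and H2-Eb2 and 31 bases apart in H2-DMb1 and H2-DMb2. In the full 300 bases of each table entry (250 before to 50 after the start, both strands), 9 of the 12 genes had a promoter in the table. AACNGATG was found in 5 of these 9 and in 2.33% of all 27025 promoters, and CCAAT in 7 of 9 and 37.9%. Among promoters of tested genes the shares were 1.62% and 39.8%. A match is a description of letters and no measurement of binding. The 4 genes shown differed in how far they fell: H2-DMb1 by -2.48 ± 0.19 and H2-Eb2, H2-DMb2 and H2-Eb1 by -4.23 ± 0.19, -4.64 ± 0.24 and -4.94 ± 0.19.

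Of 36 B cell receptor pathway genes 9 fell (25%, against 3.19% of all genes) and 0 rose (against 10%), with a median of -0.46. Cd79b, one of the signalling chains of the receptor, fell from 4438 and 4437 to 679.9, 843, 749 and 684 TPM, a difference of -2.59 ± 0.14 (adjusted p = 1.19e-08). Its partner Cd79a fell from 6908 and 8268 to 1062, 1247, 799 and 762 TPM. The receptor-proximal kinase Blk fell from 268 and 268 to 15.3, 20.4, 16.7 and 16.5 TPM, and the inhibitory lectins Cd22, from 633 and 482 to 104, 132, 106 and 121 TPM, and Siglecg, from 152 and 142 to 9.53, 15.9, 7.52 and 10.5 TPM, fell with it. Vpreb3, a protein related to the surrogate light chain, was the most lowered gene in the ranking described above for Ccl3. It measured 1123 and 1169 TPM in the naive and 6.68, 11, 8.46 and 5.49 TPM in the CpG libraries, a difference of -7.05 ± 0.31.

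Genes of quiescence and homing fell in 16 of 31 cases (51.6%, against 3.19% of all genes), with 0 raised and a median of -2.37. S1pr1, the receptor for exit from lymphoid organs, went from 163 and 137 to 3.16, 5.22, 5.04 and 5.22 TPM, a difference of -4.75 ± 0.20. Cxcr5, the follicle homing receptor, went from 483 and 426 to 54.2, 53.4, 60.8 and 50.6 TPM. No CpG value of either gene came near a naive value. Klf2, a transcription factor of quiescent lymphocytes, fell from 485 and 532 to 91, 99.8, 47.4 and 41.1 TPM, and Txnip, which restrains glucose uptake, from 294 and 295 to 15.5, 14.7, 20.9 and 19.7 TPM. Pik3ip1, a brake on PI3 kinase, fell from 38.9 and 35.9 to 1.95, 2.5, 2.27 and 2.24 TPM, and the antiproliferative gene Btg1 from 467 and 406 to 72, 73.5, 64.5 and 64.3 TPM. Foxo1, a quiescence factor of lymphocytes, measured 69.6 and 46.9 TPM in the naive and 43.4, 42.7, 34.5 and 35.3 TPM in the CpG libraries, and Ccr7, the receptor for T zone chemokines, 222 and 264 TPM in the naive and 152, 136, 177 and 159 TPM in the CpG libraries, neither called.

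Other genes among the most lowered lay outside these lists. Itgb7, an integrin chain for homing to the gut, measured 255 and 231 TPM in the naive and 2.66, 3.19, 2.05 and 2.24 TPM in the CpG libraries, a difference of -6.12 ± 0.31. Ccr6, a chemokine receptor, fell from 125 and 76.4 to 2.33, 3.06, 0.691 and 0.236 TPM. Fcgrt, the neonatal Fc receptor, fell from 59.3 and 60.9 to 0.545, 0.953, 0.301 and 0.493 TPM, and Il9r, the interleukin 9 receptor, from 71.8 and 74.5 to 1.69, 1.49, 1.23 and 1.07 TPM. Fcer2a, which encodes CD23 and whose promoter drives the Cre transgene, fell from 998 and 1029 to 60, 68.4, 16.2 and 15.1 TPM. Within the CpG group, replicates 1 and 2 lay apart from replicates 3 and 4 for Fcer2a, Ccr6 and Pxdc1, the last at 10.5, 8.65, 3.63 and 2.49 TPM against 229 and 198 TPM in naive libraries. Pglyrp1, a peptidoglycan recognition protein, fell from 68.4 and 91 to 0.695, 0.561, 0.767 and 1.62 TPM. Beside these genes, some lowered genes mark other cell types. Lowered were 4 of 6 NK cell (66.7%) and 4 of 8 monocyte and macrophage markers (50%), against 3.19% of all genes. Of the T cell markers 2 of 9 fell (22.2%), and of the neutrophil markers 1 of 8 (12.5%). That neutrophil marker was Camp, whose call was lost under 3 alternatives: a pseudocount of 5 TPM, a sex term and leaving out naive fl/- replicate 2. Gzma, an NK cell protease, stood at 8.81 and 20.1 TPM in naive fl/- and 0, 0, 0.297 and 0.14 TPM in CpG libraries, and at 0 to 0 TPM in the series 57 naive libraries.

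Cell cycle genes rose nearly throughout. Of 34 tested genes of the G1 to S transition 30 rose, 0 fell and the median was 4.01, against 10% of all genes raised. E2f1, a transcription factor that turns on S phase genes, rose from 3.77 and 4.39 to 130.2, 129.7, 121 and 121 TPM, a difference of 4.64 ± 0.11 (adjusted p = 1.21e-10). Ccne1, cyclin E, rose from 4.05 and 4.61 to 99.2, 107, 98.2 and 95.5 TPM. The replicative helicase subunits Mcm5, from 36.8 and 38.3 to 495, 538, 532 and 517 TPM, and Mcm4, from 30.7 and 25.3 to 358, 325, 335 and 328 TPM, were already present in naive cells. Rrm2, the ribonucleotide reductase subunit that limits deoxynucleotide supply, rose from 4.83 and 4.18 to 482, 459, 465 and 483 TPM, with the 4 CpG values close together.

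Mitotic genes rose in 29 of 30 cases (96.7%, against 10% of all genes), with a median of 4.14. Top2a, which untangles chromosomes, went from 1.74 and 1.88 to 170.2, 149, 202 and 222 TPM, a difference of 6.04 ± 0.51. Ube2c, the ubiquitin-conjugating enzyme of the anaphase-promoting complex, went from 2.49 and 3.33 to 202, 200.0, 243 and 260.1 TPM, and Cdk1, the mitotic kinase, from 1.18 and 1.26 to 73.1, 74.1, 96.4 and 106 TPM. For these 3 genes CpG replicates 3 and 4 were each higher than replicates 1 and 2. Ccna2, cyclin A, rose from 0.654 and 0.677 to 137, 134, 127 and 125 TPM, the mitotic kinase gene Pbk from 0.235 and 0.122 to 77.5, 75, 83.5 and 91 TPM, and the spindle checkpoint kinase Bub1b from 1.48 and 1.94 to 105, 107, 116 and 118 TPM. Mki67, the proliferation marker Ki-67, rose from 0.0864 and 0.219 to 25.4, 21.9, 23.8 and 24 TPM. In fl/+ cells 23 of the 30 rose with a median of 3.03, against 7.28% of all genes raised in fl/+ cells.

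Promoters of mitotic genes are known for CCAAT boxes and for the cell cycle homology region (CHR), a short element near the start. The 150 bases before the start of 4 raised genes are shown from the same RefSeq table and build because both elements can be read in them; capitals mark CCAAT and the CHR letters TTTGAA, each on either strand.
Top2a (chr11:99024190-99024339, minus strand): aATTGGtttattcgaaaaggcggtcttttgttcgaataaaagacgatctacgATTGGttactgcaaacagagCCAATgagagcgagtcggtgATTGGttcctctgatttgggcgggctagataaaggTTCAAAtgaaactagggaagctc
Ube2c (chr2:164769779-164769928, plus strand): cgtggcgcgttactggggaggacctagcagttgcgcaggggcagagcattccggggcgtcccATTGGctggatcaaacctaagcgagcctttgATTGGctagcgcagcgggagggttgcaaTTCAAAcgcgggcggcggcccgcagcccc
Cdk1 (chr10:69352913-69353062, minus strand): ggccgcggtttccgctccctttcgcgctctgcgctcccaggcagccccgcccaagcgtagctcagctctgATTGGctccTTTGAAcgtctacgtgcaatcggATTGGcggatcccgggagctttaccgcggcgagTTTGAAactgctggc
Kif11 (chr19:37376232-37376381, plus strand): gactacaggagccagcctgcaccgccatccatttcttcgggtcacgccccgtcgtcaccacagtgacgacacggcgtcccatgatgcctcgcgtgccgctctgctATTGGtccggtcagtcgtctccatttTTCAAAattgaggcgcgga
Over 300 bases, 24 of the 30 mitotic genes had a promoter in the table, of which 20 held CCAAT and 18 held TTTGAA, against 37.9% and 18.1% of all promoters. Among promoters of tested genes these shares were 39.8% and 11.7%. The E2F site letters TTTNGCGC were found in 7 of 27 promoters of the replication genes, in 2.76% of promoters of tested genes and in 1.38% of all promoters. Kif11, the spindle motor shown with them, rose from 0.181 and 0.249 to 34.9, 32.5, 35.5 and 36.7 TPM.

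Genes of growth rose as well. Myc itself went from 47.6 and 48.7 to 326, 279, 301 and 256 TPM, a difference of 2.56 ± 0.12 (adjusted p = 4.12e-09) that fell short of 4-fold with median-ratio scaling. Of 34 genes of Myc targets and ribosome production 21 rose (61.8%, against 10% of all genes) and 1 fell (2.94%, against 3.19%). The median was 2.39, and 13 rose with median-ratio scaling. Srm, which makes the polyamine spermidine, rose from 64.2 and 65.9 to 907, 890.2, 994 and 944 TPM. The ribosome assembly factors Rrp9, from 52.8 and 55.1 to 350.5, 333, 388 and 372 TPM, and Nop58, from 42 and 36 to 289, 269, 303 and 314 TPM, rose as well. Aminoacyl-tRNA synthetases, which charge tRNAs, rose in 12 of 23 cases (52.2%, against 10% of all genes) with a median of 2.05. With median-ratio scaling they rose in 1 case. Iars, the isoleucine enzyme, measured 24.2 and 15.2 TPM in the naive and 164, 139.6, 162 and 149 TPM in the CpG libraries, a difference of 2.93 ± 0.17. Of 26 mitochondrial ribosomal proteins 4 rose (15.4%, against 10% of all genes), and 0 with median-ratio scaling.

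Biosynthetic enzymes rose in several groups. Of 25 genes of serine, one-carbon and nucleotide synthesis 17 rose (68%, against 10% of all genes) and 0 fell, with a median of 2.63. Shmt2, the mitochondrial serine hydroxymethyltransferase, whose model overlaps another gene, rose from 83.1 and 72.3 to 757, 776, 795 and 777 TPM. Mthfd1, a folate enzyme, rose from 31.9 and 26.8 to 268, 252, 265 and 259 TPM, and Ctps, which makes CTP, from 12.9 and 8.99 to 164, 133, 196 and 183 TPM. Of 26 cholesterol genes 12 rose (46.2%, against 10% of all genes) and 2 fell (7.69%, against 3.19%). The median was 1.89, and 5 rose with median-ratio scaling. Sqle, squalene epoxidase, rose from 18.5 and 16 to 129, 144, 125 and 145 TPM, whereas Abca1, which exports cholesterol, fell from 15 and 10.7 to 0.196, 0.435, 0.191 and 0.358 TPM. Sqle and Abca1 lay on opposite sides of the naive level in every CpG library.

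Of 21 glycolysis genes 8 rose (38.1%, against 10% of all genes) and 0 fell, and 3 rose with median-ratio scaling. Hk2, the inducible hexokinase, went from 2.56 and 2.23 to 71.7, 58.9, 90.2 and 81.3 TPM, a difference of 4.48 ± 0.17, and Slc16a1, a lactate transporter, from 5.57 and 3.84 to 190.4, 149, 169 and 156 TPM. The glucose transporter Slc2a1 measured 65.3 and 54.6 TPM in the naive and 57.5, 53.5, 60.1 and 55.4 TPM in the CpG libraries, with overlapping values. Among 19 genes of amino acid transport and the Atf4 response 5 rose (26.3%, against 10% of all genes) and 1 fell (5.26%, against 3.19%). Asns, asparagine synthetase, rose from 0.602 and 0.467 to 23.4, 24.1, 25.5 and 32.9 TPM, and Slc7a5, a large neutral amino acid transporter, from 24.7 and 18 to 190.4, 170.0, 186 and 173 TPM. The lowered member was Ddit4, an inhibitor of mTORC1, from 164 and 147 to 19.2, 23.3, 18.7 and 21.3 TPM. Proteasome genes rose in 9 of 30 cases (30%, against 10% of all genes), and in 4 with median-ratio scaling. Psmd1, a subunit of the proteasome's regulatory particle, rose from 41.4 and 37.6 to 262, 223, 268 and 257 TPM. Oxidative phosphorylation genes had a median of 0.76, against 0.53 over all genes, with 1 of 29 raised (3.45%, against 10% of all genes). On adjusted p alone 26 of the 29 were higher, against 6067 of 11081 over all genes. Their summed level was 8700 to 9070 TPM in naive and 14300 to 15400 TPM in CpG fl/- libraries. With median-ratio scaling their median was 0.17, against 0.02 over all genes. The raised gene was Cycs, cytochrome c, at 9.96 and 11.2 TPM in the naive and 75.5, 66.4, 80.8 and 82.5 TPM in the CpG libraries. Cox4i1, a subunit of cytochrome c oxidase, measured 1702 and 1789 TPM in the naive and 1632, 1846, 1753 and 1819 TPM in the CpG libraries with overlap.

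**Figure D3:**
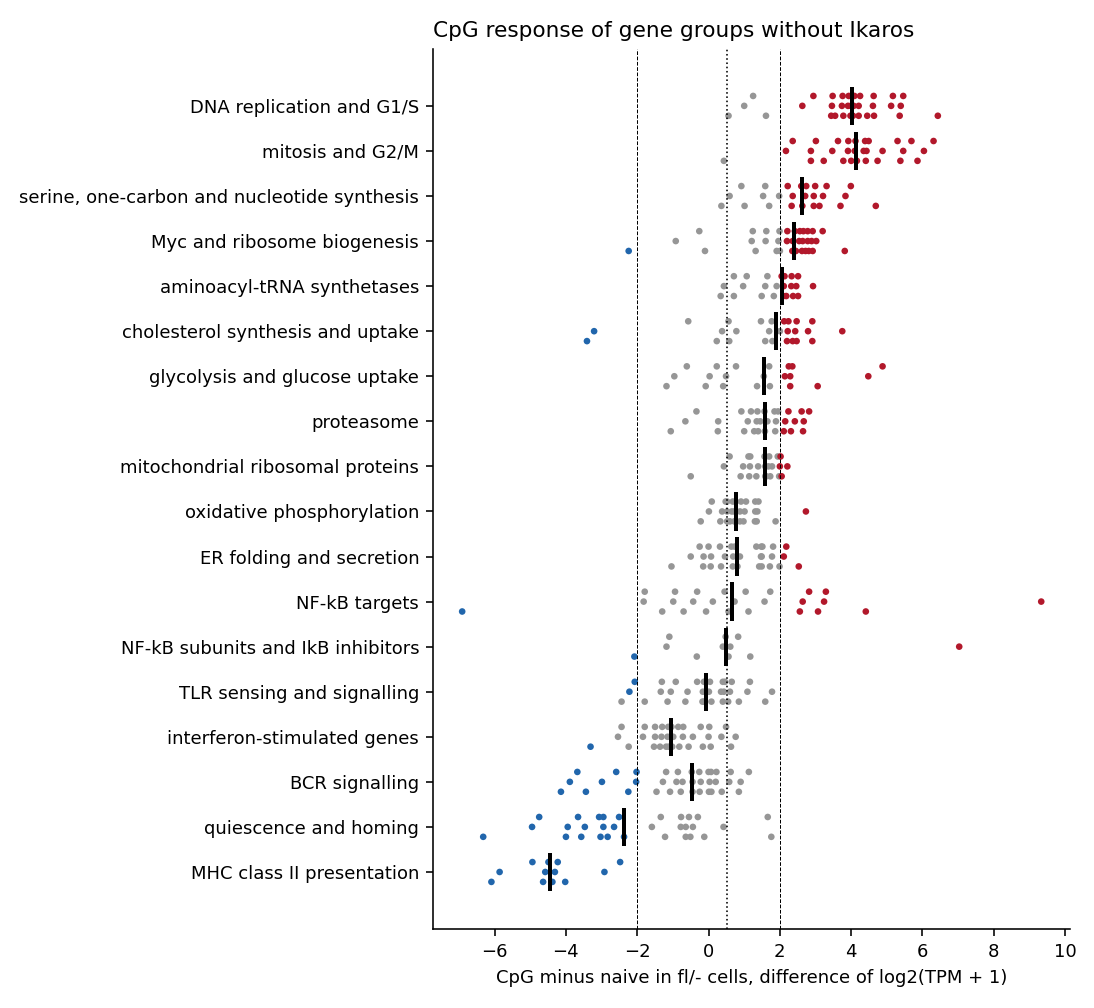
Each point is a tested gene of one list, placed by its difference of mean log2(TPM + 1) between CpG and naive fl/- cells, with raised genes in red, lowered genes in blue, genes of neither kind in grey, a black bar at the list's median, dashed lines at -2 and 2 and a dotted line at 0.53, the median of all genes. Mitosis (4.14) and replication (4.01) lie highest and MHC class II presentation (-4.43) lies lowest.

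Of 17 plasma cell genes 2 rose (11.8%) and 0 fell, with a median of 0.00, a share near the 10% of all genes raised. Prdm1, which encodes the plasma cell regulator Blimp-1, measured 0.188 and 0.117 TPM in the naive and 4.3, 3.07, 4.32 and 3.67 TPM in the CpG libraries, a difference of 2.06 ± 0.37. Its call was lost under 5 alternatives: median-ratio scaling, the series 57 naive libraries as controls, a sex term, a block for runs of library numbers and a pseudocount of 5 TPM. Sdc1, the plasma cell surface protein CD138, measured 0.348 and 0.655 TPM in the naive and 10.1, 9.8, 7.52 and 7.17 TPM in the CpG libraries, a difference of 2.68 ± 0.17. Both stayed at low levels in every library. Of 31 genes of protein folding and secretion in the endoplasmic reticulum 3 rose (9.68%), again near the background share, and 0 with median-ratio scaling. Of 17 germinal centre and class switching genes 7 rose (41.2%, against 10% of all genes) and 0 fell. Of these, Ung, the uracil glycosylase of class switching and base repair, went from 10.3 and 9.31 to 216, 201, 193 and 167 TPM.

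Among 38 transcription factors of B cells 5 rose (13.2%) and 2 fell (5.26%), near the 10% and 3.19% of all genes. Batf, an AP-1 family factor of activated lymphocytes, went from 45.8 and 50.5 to 1043, 963, 1048 and 999 TPM, a difference of 4.37 ± 0.08 (adjusted p = 1.79e-11). Myb, a factor of progenitor and dividing cells, went from 0.256 and 0.61 to 56.4, 47.3, 52.8 and 47.1 TPM, and Mybl2, its cell cycle relative, from 2.09 and 2.78 to 178, 189.8, 190.1 and 186 TPM. Irf4, a factor that plasma cells need, measured 40.2 and 31.9 TPM in the naive and 17.5, 13.4, 23.4 and 20.1 TPM in the CpG libraries, Bcl6, the germinal centre repressor, 74.1 and 38.2 TPM in the naive and 37.4, 40, 38.4 and 40.3 TPM in the CpG libraries, and Xbp1, the secretory regulator, 161 and 126 TPM in the naive and 159, 158, 154 and 130.0 TPM in the CpG libraries. None of these 3 was called, and the values of Bcl6 and Xbp1 overlapped.

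Interferon-stimulated genes varied widely between libraries of the same group. Their median difference was -1.04 with a median standard error of 1.05, against 0.16 over all genes. Of 35 genes 0 rose (against 10% of all genes) and 1 fell (2.86%, against 3.19%). The summed level was 579.8, 781.9, 3327 and 6321 TPM in CpG replicates 1 to 4 and 2720 and 3601 TPM in the naive libraries, so the ranges overlapped. Isg15, a ubiquitin-like antiviral protein, measured 68.6 and 127 TPM in the naive and 6.57, 13, 289 and 754 TPM in the CpG libraries, and Irf7, an interferon regulatory factor, 92.8 and 128 TPM in the naive and 1.21, 3.15, 76.3 and 237 TPM in the CpG libraries. Replicates 3 and 4 were high and replicates 1 and 2 low for both. The same spread was present with Ikaros, where the sums were 589.5, 3244, 11427 and 8594 TPM in CpG libraries.

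Of 23 immediate early genes 3 rose (13%, near the 10% of all genes) and 7 fell (30.4%, against 3.19%), with a median of -1.01. Atf3, a stress-induced repressor, rose from 0.685 and 1.47 to 55.7, 63.6, 104 and 128 TPM, whereas Dusp6, a phosphatase for ERK, fell from 51.4 and 43.1 to 6.73, 7.29, 6.4 and 6.48 TPM, and Btg2, an antiproliferative gene, from 213 and 176 to 29, 34.2, 22.5 and 21.9 TPM. Fos was called lowered, but its naive values of 6.14 and 279 TPM lay far apart, and those of Fosb were 0.461 and 28.1 TPM. The CpG values were 0.792, 0.548, 0.561 and 0.878 TPM for Fos and 0.125, 0.169, 0.104 and 0.0973 TPM for Fosb, so the size of their fall depends on naive replicate 2. Of 22 apoptosis regulators 4 rose (18.2%, against 10% of all genes) and 0 fell. Besides Bcl2l1, they included 2 members of the Bcl2a1 family, whose near-identical copies can share reads.

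The CpG response was compared with that of cells keeping 1 Ikzf1 allele, which used separate naive and CpG libraries. In fl/+ cells 807 genes rose (7.28%) and 327 fell (2.95%). A set of 738 genes rose in both genotypes, which is 66.5% of the fl/- and 91.4% of the fl/+ list, and 251 fell in both, 70.9% and 76.8% of the lists. A gene called in opposite directions was not found, with a count of 0. The difference of the responses was tested as an interaction, in which an additive offset between library series cancels. It was higher in fl/- for 241 genes (2.17%) and lower for 41 genes (0.37%) at an adjusted p under 0.05, and 1983 genes passed at an unadjusted p under 0.05. Weighted fits on recovered reads (voom) gave 81 and 35 genes. The counts moved with single libraries: the higher count was 86 without naive fl/- replicate 2 and 390 without naive fl/- replicate 1, and the lower count ranged from 18 without naive fl/+ replicate 2 to 69 without CpG fl/+ replicate 1. Of the 241 genes, 110 were higher with CpG in both genotypes, 74 in fl/- alone on adjusted p, 20 were higher in fl/- and lower in fl/+, 22 were lower in fl/+ alone, and 15 were lower in both.

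**Figure D4:**
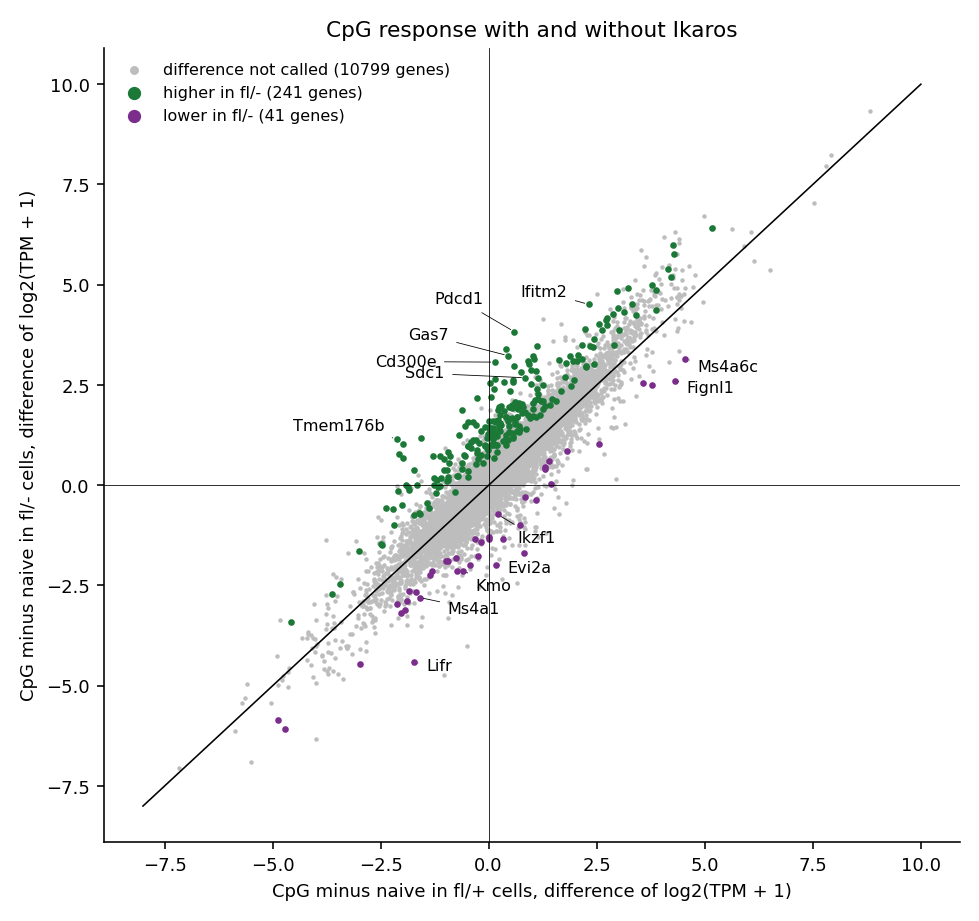
Each point is a tested gene, with the difference of mean log2(TPM + 1) between CpG and naive cells in fl/+ (x axis) and fl/- (y axis) and a line at equality; green marks 241 genes with a higher and purple 41 genes with a lower difference in fl/-. Most genes lie along the line, and the labelled Tmem176b, Pdcd1, Cd300e and Gas7 lie far above it.

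The pair Tmem176a and Tmem176b, neighbouring genes for membrane proteins, were higher with CpG in fl/- and lower with CpG in fl/+ cells on adjusted p. Tmem176b stood at 152 and 108 TPM in naive and 301, 295, 289 and 269 TPM in CpG fl/- libraries, and at 34.4 and 35.5 TPM in naive and 10.6, 6.92, 6.47 and 5.68 TPM in CpG fl/+ libraries. The difference of the responses was 3.29 ± 0.27 (adjusted p = 0.000335). Tmem176a went from 115 and 87.3 to 235, 251, 189.8 and 163 TPM in fl/- and from 31.1 and 32.1 to 9.62, 6.83, 6.6 and 6.42 TPM in fl/+ cells, a difference of 3.01 ± 0.28 (adjusted p = 0.000663). For both genes naive fl/- cells already held more transcript than any fl/+ library. Because the 2 genes move together and are transcribed away from each other, the 108 bases between their nearest RefSeq starts are shown, in the GRCm38.p6 build.
Tmem176a-Tmem176b (chr6:48841375-48841482, plus strand): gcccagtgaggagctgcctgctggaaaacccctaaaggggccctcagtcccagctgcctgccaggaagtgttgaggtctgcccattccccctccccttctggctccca
The sequence is in lower case throughout because it held neither CCAAT nor TGGGAA, letters of a site that Ikaros is known to recognise. The shorter letters GGGAA were not searched for, and their reverse complement, ttccc, can be read in the stretch. Over 300 bases, TGGGAA was found in 43 of 167 promoters of genes with a higher difference (25.7%). It was found in 22.6% of the promoters of tested genes and in 25.5% of all promoters.

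Further genes rose in fl/- cells by more than in fl/+ cells. Pdcd1, the inhibitory receptor PD-1, went from 0.251 and 0.104 to 14.6, 10.3, 26.8 and 14.7 TPM in fl/- and from 0.185 and 0.167 to 0.398, 0.128, 1.16 and 1.9 TPM in fl/+ libraries, a difference of responses of 3.23 ± 0.53 (adjusted p = 0.00891). Gas7, an actin-associated protein, went from 0.157 and 0.163 to 12, 9.98, 10.4 and 7.56 TPM in fl/- and from 0.177 and 0.102 to 1.04, 0.284, 0.473 and 0.532 TPM in fl/+ libraries, a difference of 2.77 ± 0.28 (adjusted p = 0.000796). Cd300e, a myeloid immune receptor, gave 9.41, 8.17, 12.1 and 11.7 TPM in CpG fl/- and 0.395, 0.19, 0.286 and 0.737 TPM in CpG fl/+ libraries, a difference of 2.94 ± 0.30 (adjusted p = 0.000796). Each of these 3 genes had CpG values in fl/- above every fl/+ value. Sdc1 reached 10.1, 9.8, 7.52 and 7.17 TPM with CpG in fl/- and 2.06, 2.34, 1.73 and 1.71 TPM in fl/+ libraries, a difference of 1.83 ± 0.24 (adjusted p = 0.00331). Ikzf4, which encodes the Ikaros relative Eos, reached 3.37, 2.56, 3.94 and 3.18 TPM in fl/- and 0.43, 0.551, 0.506 and 0.365 TPM in fl/+ libraries, a difference of 1.46 ± 0.21 (adjusted p = 0.00465), at levels of a few TPM. Ifitm2, an interferon-induced membrane protein, reached 289, 344, 223 and 259 TPM in fl/- and 20.4, 23, 34 and 30.2 TPM in fl/+ CpG libraries, a difference of 2.19 ± 0.34 (limma, adjusted p = 0.00659). For Cd300e, Sdc1, Ikzf4 and Ifitm2 only CpG levels are given in this paragraph. Those levels include any gap between the genotypes in naive cells, whereas the difference of responses takes the naive values into account. By voom the differences of Pdcd1, Cd300e, Sdc1, Ikzf4 and Ifitm2 did not pass, and that of Pdcd1 was also lost without naive fl/- replicate 2.

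Tagap and Rassf4, genes of small GTPase signalling, were lower with CpG in fl/+ and higher in fl/- cells on adjusted p. Tagap went from 4.28 and 3.06 to 9.81, 9.49, 9.51 and 9.04 TPM in fl/- and from 7.15 and 9.89 to 2.25, 2.52, 1.72 and 2.25 TPM in fl/+ cells, a difference of 2.75 ± 0.23 (adjusted p = 0.000335). Rassf4, whose model overlaps another gene, had a difference of 2.67 ± 0.26 (adjusted p = 0.000751), and H1fx, a linker histone, of 2.86 ± 0.60 (adjusted p = 0.031). Tagap and Rassf4 passed under every alternative, whereas the call of H1fx was lost under 11, among them voom and leaving out any 1 of the fl/- libraries. Over all genes 2.17% had a higher and 0.37% a lower difference. Of 20 genes listed as raised without Ikaros, a list chosen with results of these samples known and so no independent evidence of a direction, 10 had a higher and 1 a lower difference. That 1 was Ms4a6c, a membrane protein of the CD20 family, which went from 33 and 31.5 to 306, 259, 293 and 316 TPM in fl/- and from 7.88 and 6.76 to 163, 236, 184 and 198 TPM in fl/+ libraries. It rose in both genotypes, and its naive level was higher in fl/- than in fl/+ cells.

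Genes with a smaller or more negative response in fl/- cells included Evi2a, a membrane protein gene within an intron of Nf1. It went from 42.7 and 39.8 to 9.17, 10.1, 9.38 and 10.4 TPM in fl/- and from 30.6 and 22.6 to 23, 31.2, 29.6 and 35.7 TPM in fl/+ cells, a difference of -2.14 ± 0.23 (adjusted p = 0.000948). All 4 CpG fl/- values lay below every other library, and its model overlaps another gene. Ms4a1, which encodes CD20, fell from 788 and 716 to 129, 129, 91.7 and 84.9 TPM in fl/- and went from 663 and 627 to 229, 232, 175 and 216 TPM in fl/+ cells, a difference of -1.20 ± 0.25 (adjusted p = 0.0302). Kmo, an enzyme of tryptophan breakdown, fell from 38.8 and 41.3 to 9.95, 8.52, 6.27 and 9.32 TPM in fl/- cells and went from 41.3 and 35.7 to 19.7, 31.5, 22.7 and 28.1 TPM in fl/+ cells, a difference of -1.53 ± 0.28. Lifr, the receptor for leukaemia inhibitory factor, went from 46.4 and 11 to 0.137, 0.136, 0.0253 and 0.166 TPM in fl/- and from 2.08 and 3.12 to 0.0446, 0.0358, 0.121 and 0.101 TPM in fl/+ cells, a difference of -2.69 ± 0.54 (adjusted p = 0.0256). Its CpG values were near 0 in both genotypes, and the naive values set the difference. Cd22 and H2-Ob, lowered in fl/- as above, had differences of -0.89 ± 0.18 and -1.0 ± 0.21. The difference of Ms4a1 was lost under 7 alternatives, those of Lifr and Cd22 under 6 each and that of Kmo under 2, in each case including the fit without naive fl/+ replicate 2.

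Cell cycle genes showed a further difference that moved with single libraries and with the fit. Of the 30 mitotic genes 4 had a higher difference in fl/-, against 2.17% of all genes: Bub1b, Foxm1, Mad2l1 and Kif23. These calls were lost under 12, 6, 6 and 13 alternatives in that order. For all 4 genes the alternatives included voom and the fits without CpG fl/- replicate 1 and without naive fl/- replicate 2. Naive fl/+ replicate 1 held more mitotic transcript than replicate 2, with Ube2c at 27.4 and 2.77 TPM, Plk1 at 8.74 and 1.07 TPM and Top2a at 11.7 and 2.02 TPM in the 2 libraries. Without that library 0 of the 30 passed, and over all genes 165 of the 241 and 28 of the 41 differences were called again. Of 39 genes followed for their difference of responses, 7 passed under every alternative tried: Tmem176a, Tmem176b, Gas7, Tagap, Rassf4, Evi2a and Ms4a6c.

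**Figure D5:**
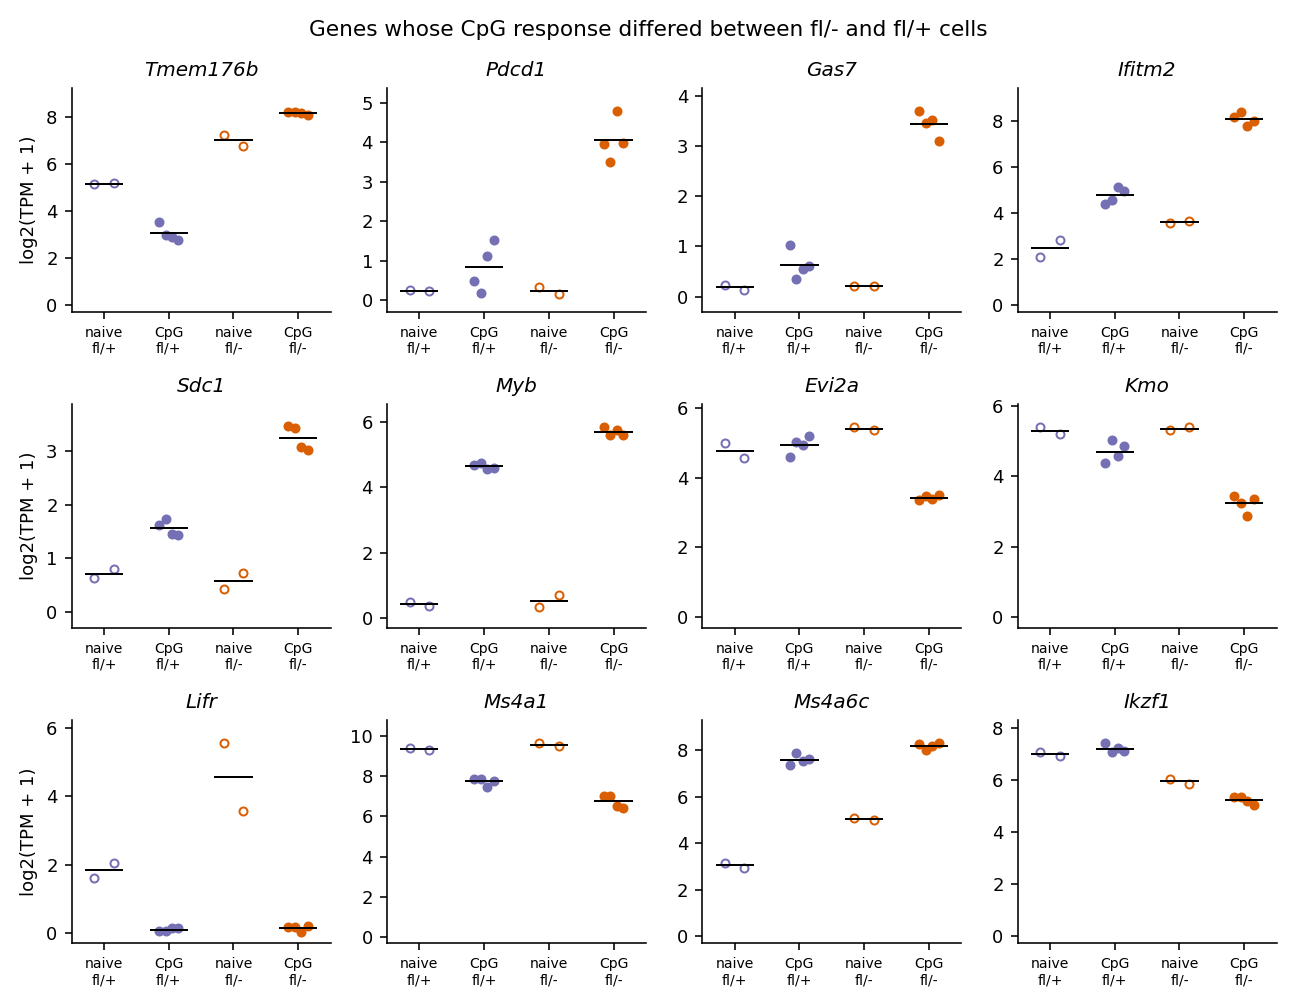
Library values as log2(TPM + 1) for 11 genes with a difference of responses and for Ikzf1, in naive and CpG Cd23-cre Ikzf1(fl/+) and Cd23-cre Ikzf1(fl/-) cells, with open points for naive libraries, filled points for CpG libraries and a bar at each group's mean. Tmem176b lies higher with CpG in fl/- and lower with CpG in fl/+ cells, and Pdcd1, Gas7 and Sdc1 lie highest in CpG fl/- cells.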

How the data were processed

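PolyA RNA was purified with the RNeasy Plus Mini and Dynabeads mRNA kits, per the labels' protocols. The submitters' processing notes name TopHat 1.4.1, Bowtie, featureCounts 1.5.0, SAMtools 1.4, deepTools 3.0.1 and the mm9 build, without saying which applied to which assay. The annotation, strand setting and any read filter are not given in the sources used here. The deposited values are TPM per gene model, which the authors computed per library, with a sum of 1000000. They are shares, not counts. Overlapping (3539) and duplicated (474) models are marked in the files, and such genes are uncertain here.

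Values were taken as log2(TPM + 1), and genes with 1 TPM or more in at least 2 of 12 libraries were tested with limma 3.58.1 in R 4.3.3 (trend, two-sided, Benjamini-Hochberg adjustment over all tested genes). 1 fit held 4 groups: CpG and naive fl/- and CpG and naive fl/+ cells. Values after ± are standard errors of the log2 difference (4 CpG, 2 naive libraries). Groups came from the genotype and preparation labels, and replicate numbers follow accession order and pair nothing. The procedure was tested on simulated data. TPM steps gave whole reads for 18843 of 18843 genes above 0 (tolerance 0.01), between 12126702 and 17273512 reads per library, and these reads served the voom alternative. Replicates were distinct libraries: chi-square per degree of freedom was 6.63 to 54.59 over 14 pairs.

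The comparison, gene lists and tests were chosen with earlier results of these data known. The text names Ikzf1, the 12 most raised and 12 most lowered called genes with a mean of 10 TPM or more in the higher group, up to 5 called members per list by adjusted p (where fewer than 2 were called, the 2 most abundant), the 8 largest differences of responses in each direction with 5 TPM or more in a group, and members that define a list. Some genes this rule picks are not reported here. Promoter letters came from a RefSeq table. Alternatives were another scaling, pseudocount, filter, control series, sex term, block, voom and leaving out each library.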

Additional observations from a re-analysis of the deposited data

Results flagged for a closer look

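Within the 4 CpG fl/- libraries, 3 of the genes described had 1 library whose gap to its neighbour was large for the group's range. Chance meets this check in about 1 of 20 groups. With the many genes described, 3 such gaps are no sign that these genes or libraries are unusual. H2-DMa stood at 84.8 TPM in replicate 2, S1pr1 at 3.16 TPM in replicate 1 and Phgdh, an enzyme of serine synthesis, at 239.0 TPM in replicate 2.

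The other results in this section are genes whose CpG response differed between fl/- and fl/+ cells by the interaction test in limma, as the fl/- minus the fl/+ difference on the log2 scale. Higher in fl/- were Tmem176b (3.29), Pdcd1 (3.23), Tmem176a (3.01), Cd300e (2.94), H1fx (2.86), Gas7 (2.77), Tagap (2.75), Rassf4 (2.67), Ifitm2 (2.19) and Sdc1 (1.83). Among genes raised in both genotypes or called in fl/-, the difference was 1.71 for Wnt10b, a secreted Wnt ligand, 1.25 for Fam46c, a poly(A) polymerase, 1.46 for Ikzf4, 1.18 for Bcl2l1, 1.0 for Slc16a1, 0.97 for Myb and 0.50 for Batf. For cell cycle genes it was 1.42 for Kif23, 1.26 for Foxm1, 1.23 for Bub1b, 1.13 for Mad2l1 and 0.84 for Ccne1. Many of these calls were fragile. That of Ccne1 was lost under 16 alternatives, those of Batf and Kif23 under 13, that of Bub1b under 12 and that of Slc16a1 under 10. Abca1, which fell in both genotypes, had a difference of 1.17.

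Lower in fl/- were Lifr (-2.69), Evi2a (-2.14), the ubiquitin ligase adaptor Spsb1 (-1.70), the DNA repair ATPase Fignl1 (-1.69), the G protein regulator Rgs2 (-1.67), Kmo (-1.53), Utf1 (-1.52), St7 (-1.47), Ms4a6c (-1.41), H2-Oa (-1.37), Ms4a1 (-1.20), H2-Ob (-1.0), Ikzf1 (-0.95), Cd22 (-0.89), Icosl (-0.84) and Dusp6 (-0.79). The adjusted p ranged from 0.000335 for Tmem176b and Tagap to 0.0489 for H2-Oa. Utf1 and H1fx lay at levels of a few TPM or below in fl/- cells, and the values of St7 overlapped between naive and CpG fl/- libraries. The call of Utf1 was lost under 16 alternatives and those of Spsb1 and Fignl1 under 12 each.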

How the results depend on the processing

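The 1110 raised and 354 lowered genes of fl/- cells were counted again under each alternative. With median-ratio scaling 630 rose and 635 fell, and in fl/+ cells 476 rose and 547 fell. With a pseudocount of 5 TPM 619 rose and 201 fell, and in fl/+ cells 413 and 177. With a pseudocount of 0.1 TPM 593 fell in fl/- and 555 in fl/+ cells. By voom on recovered reads 738 fell in fl/- and 658 in fl/+ cells, and against the series 57 naive libraries 646 fell in fl/- cells. Leaving out 1 library gave between 1041 and 1234 raised and between 340 and 376 lowered genes. The number of genes called with a positive difference of responses, fl/- minus fl/+, was 158 with a filter of 5 TPM and 81 by voom. It was 359 with a block for the 2 runs of numbers among the CpG libraries. On leaving out 1 library it ranged from 86 (without naive fl/- replicate 2) to 390 (without naive fl/- replicate 1). Among these it was 115 without CpG fl/- replicate 3 and 124 without CpG fl/- replicate 1. The number called with a negative difference was 100 with that block, 62 with median-ratio scaling and 78 with no filter. On leaving out 1 library it ranged from 18 (without naive fl/+ replicate 2) to 69 (without CpG fl/+ replicate 1). The sign of the difference does not give which genotype changed more. Of 166 genes followed for the CpG response, 53 lost the call under at least 1 alternative, and of 39 followed for the difference, 32 did. Against the series 57 naive libraries the log2 difference was 0.11 for Thy1, 0.00 for Nkg7, 0.14 for Gzma and 0.55 for Camp, opposite in sign or at 0; the cause was not tested. No paired analysis was possible because the labels give no replicate numbers shared between groups, and the block for runs of library numbers divides only the CpG libraries, so that it pairs no CpG library with a naive one. With 2 naive libraries, no culture without CpG and library series that go with the stimulus, the size of single changes is limited in precision, and the gene-wise spread rests mainly on the CpG libraries.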
